A study of Mus musculus with 12 samples.

Results

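The genes described here encode collagens and the main proteins of basement membranes, the sheets of matrix that cells lay down beneath themselves. They were chosen by name: every non-control probe whose gene name on the array was a collagen chain (Col), a laminin chain (Lama, Lamb or Lamc), a nidogen (Nid1 or Nid2) or Hspg2. This gave 101 of the 41174 non-control probes, for 53 of the 27962 gene names on the array: 78 probes for 40 collagen genes, 21 probes for 11 laminin genes and 1 probe each for Nid1 and Nid2. There were 0 probes named Hspg2. In all, 34 genes had several probes and 19 had 1. Of the 101 probes, 72 matched a RefSeq record by accession, with 0 disagreements in symbol (Lamb1-1 is the array's name for Lamb1).

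The cells were mouse embryonic fibroblasts (MEFs), which are connective tissue cells grown from embryos, and were homozygous (KO), heterozygous (Het) or wild type (WT) at Sirt1, the gene of an NAD-dependent protein deacetylase. Each genotype had 4 arrays, numbered in the labels 2, 3, 4 and 5 for KO, 2, 3, 4 and 5 for Het, and 1, 2, 3 and 5 for WT, and values per array are given below in that order. All cells were labelled female, were grown without special treatment in the same medium with serum, glucose and glutamine and were collected while dividing. The labels name neither the part of Sirt1 that was deleted nor the strain or age of the embryos, and do not say whether arrays of 1 genotype were grown apart, so the p-values below speak for the scatter among these arrays alone, part or all of which could be technical.

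Collagens are secreted proteins wound from helical chains. Fibrillar collagens such as types I, III and V make the fibres of connective tissue, FACIT collagens (fibril-associated collagens with interrupted helices) sit on the surface of those fibres, and type IV collagen forms the flexible network of basement membranes. Laminins, each assembled from an alpha, a beta and a gamma chain, form a separate network there, bind receptors on cells and are joined to the type IV network by nidogens and by the proteoglycan perlecan. Fibroblasts are known as the main makers of fibrillar collagen and also secrete type IV collagen, laminins and nidogens.

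Over all 12 arrays, the members called lower in KO than in WT cells were Col4a1 and Col4a2, which encode the chains of the most widespread type IV collagen and lie head to head on chromosome 8. The windows from 250 bases before to 50 bases after the start of each gene (RefSeq, GRCm38.p6) overlap by 78 bases, and are shown because both genes share this stretch of DNA. Capitals mark matches, on either strand, to the GC box GGGCGG and to CCAAT. Col4a1 lies on the minus strand, at chr8:11312777-11313076, and Col4a2 on the plus strand, at chr8:11312555-11312854.
Col4a1: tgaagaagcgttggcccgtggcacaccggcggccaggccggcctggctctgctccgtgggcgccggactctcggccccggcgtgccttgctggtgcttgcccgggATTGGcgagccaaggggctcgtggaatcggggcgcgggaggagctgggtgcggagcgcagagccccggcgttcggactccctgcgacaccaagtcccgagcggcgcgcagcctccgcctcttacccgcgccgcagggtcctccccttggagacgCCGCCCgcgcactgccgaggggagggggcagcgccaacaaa
Col4a2: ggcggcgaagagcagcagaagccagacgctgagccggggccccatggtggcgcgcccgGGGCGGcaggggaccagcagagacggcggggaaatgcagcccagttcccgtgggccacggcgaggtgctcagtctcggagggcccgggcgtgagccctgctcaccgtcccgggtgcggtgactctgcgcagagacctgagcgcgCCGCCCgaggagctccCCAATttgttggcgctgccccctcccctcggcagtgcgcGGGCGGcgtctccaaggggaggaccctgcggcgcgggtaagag

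The Col4a1 window held 1 GC box and 1 CCAAT, and the Col4a2 window 3 GC boxes and 1 CCAAT. The GC box of the Col4a1 window lies in the overlap and is the same site as the last GC box of the Col4a2 window. Of 32851 windows of this length over the genome, 35.7% held a GC box and 37.4% a CCAAT on either strand. Of the 42 windows of these matrix genes, 57.1% held a GC box and 33.3% a CCAAT. The TATA box TATAAA was found in 13.6% of all windows and in neither of these. Such matches are a description of the letters and no evidence of binding.

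Each gene of this pair was read by 2 probes of 60 bases, so the fall could be seen at separate places in each transcript. The first 30 bases of these 4 probes are printed 5′ to 3′, as the array files give them, with the interval the files give for the whole probe on their build, mm7. That interval is 60 bases long except for the second Col4a1 probe (1835 bases) and Lama5 (15 bases). They are followed by the probes of Lama5 and Col8a1, the members called higher in KO cells over all 12 arrays (Lama5 against WT, Col8a1 against Het).
Col4a1 probe A_51_P124254, chr8:11167020-11167079, minus strand: ttttcgtctctggagaaactgtactatcct
Col4a1 probe A_52_P518827, chr8:11167857-11169691, minus strand: atagagagaagcgagatgttcaagaagccc
Col4a2 probe A_51_P491350, chr8:11416851-11416910, plus strand: cagtcttcctaaaatgaggcagagtctagg
Col4a2 probe A_52_P496142, chr8:11416191-11416250, plus strand: tcgctaacaagtacagcttctggctgacca
Lama5 probe A_51_P411061, chr2:180677286-180677300, minus strand: cactttctatgaataacaagtcatttctgg
Col8a1 probe A_52_P282058, chr16:57488371-57488430, minus strand: gctgctggactctatgccgggcaatatgtc

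Several arrays have to be named before the results. The 3 arrays numbered 3 stood apart: arrays of the same genotype correlated at 0.969 to 0.998 without them and at 0.923 to 0.97 with them. The array labelled WT replicate 3 also went against its label, since Xist was at −2.94 there and at 1.66 to 3.42 on the other 11, while the Y-linked Ddx3y was at 1.04 there and at −4.35 or lower elsewhere. KO replicates 4 and 5, on the same slide, were nearly alike (correlation 0.998). Results are therefore given over all 12 arrays and over the 9 arrays without number 3. At 1 Sirt1 probe the level was −0.47 ± 0.29 in KO cells, 0.37 ± 0.03 in Het cells and 0.36 ± 0.21 in WT cells (SD, n = 4 each), and at the other it was 0.81 ± 0.41 in KO cells, 0.87 ± 0.34 in Het cells and 0.79 ± 0.24 in WT cells. Which of them lies in the deleted part is not given in the sources used here, so a probe outside that part checks nothing. The arrays lay on 4 slides. On slide 4, with KO replicates 4 and 5, Het replicate 5 and WT replicate 5, 76.9% to 77.8% of non-control probes were well above background, against 59.7% to 64.8% on the other 8 arrays.

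The cells carried the marks of fibroblasts. All 11 fibroblast markers looked at were well above background on all 12 arrays, and their summed level, in multiples of the 75th percentile of the array, was 163 to 191 in KO cells, 196 to 263 in Het cells and 206 to 292 in WT cells. Thy1, a surface marker of fibroblasts, was 3.47 lower in KO than in WT cells on the log2 scale (SE 0.30, limma adjusted p = 0.000966). It was the only marker of the 11 called there over 12 arrays, and their median was −0.81. Against Het cells 2 fell in KO and 0 rose, namely Thy1 (−2.16, adjusted p = 0.0105) and Dcn (−3.21, adjusted p = 0.0191). Of all tested probes, 1.5% and 0.816% were called in these comparisons. Of 9 endothelial markers, 4 were tested and 4 were well above background on all 12 arrays, while Pecam1 and Tie1 were on 0 arrays. Their sums were 1.46 to 4.59 in KO, 2.78 to 4.88 in Het and 2.09 to 4.87 in WT cells. Kdr, a receptor for VEGF, was 2.44 lower in KO and 2.43 lower in Het than in WT cells over the 9 arrays (adjusted p = 0.00111 and 0.00161). Over 12 arrays Kdr had −1.61 and −2.34 (adjusted p = 0.168 and 0.0654). Egfl7 went the other way in Het against WT cells over the 9 arrays (0.83, adjusted p = 0.0177), and Tek and Esam were not called. Of 8 macrophage and blood markers, 4 were tested and 2, Cd14 and Cd68, were well above background on all 12 arrays, with Ptprc on 0 arrays and sums of 0.628 to 0.852 in KO, 0.601 to 1.26 in Het and 0.684 to 2.07 in WT cells. Markers of smooth muscle and pericytes, which wrap small vessels, summed to 154 to 173 in KO, 85.8 to 139 in Het and 87.7 to 394 in WT cells, the lowest WT value being replicate 3. Without number 3 these sums were 154 to 173 in KO, 85.8 to 139 in Het and 253 to 394 in WT cells. Cnn1 was called lower in Het than in WT cells over 12 arrays (−3.72, adjusted p = 0.0164). It was called higher in KO than in Het cells (2.90, adjusted p = 0.0373). Over the 9 arrays 2 of the 5 tested members fell in KO and 3 in Het against WT cells, and 0 rose. Of all tested probes, 15.4% and 10.3% were called there. The sums for 7 epithelial markers were 3.27 to 5.74 in KO, 1.18 to 3.5 in Het and 2.81 to 18.1 in WT cells. Their members moved in different directions. Krt19 was lower over the 9 arrays in KO (−2.39, adjusted p = 0.0134) and Het (−4.32, adjusted p = 0.00123) than in WT cells. Over 12 arrays Epcam was called higher in KO (1.59, adjusted p = 0.047) and Krt8 in Het cells (3.36, adjusted p = 0.034), each well above background on 1 of 4 WT arrays. Epcam, well above background on 4 of 4 KO and 3 of 4 Het arrays, was tested because of KO, the genotype in which it is highest. The median of the 7 for KO against WT was 1.35. Of 4 mesothelial markers 2 were tested, with Wt1 and Lrrn4 well above background on 0 arrays, and the sums were 6.76 to 30.9 in KO, 6.03 to 19.9 in Het and 0.531 to 47.9 in WT cells. Without number 3 those sums were 24.4 to 30.9 in KO, 19.6 to 19.9 in Het and 6.85 to 47.9 in WT cells. The mesothelial gene Upk3b was well above background on 2 of 4 KO, 0 of 4 Het and 4 of 4 WT arrays and was called lower in Het than in WT cells over 12 arrays (adjusted p = 0.0413). Upk3b was tested because of WT, the genotype in which it is highest. Msln, the other tested member, was well above background on all 12 arrays and was not called. It had 1.17 in KO and 0.78 in Het against WT cells over 12 arrays (adjusted p = 0.70 and 0.79). Over the 9 arrays Msln had 0.27 and −0.19 (adjusted p = 0.81 and 0.88). Of 7 cartilage markers 5 were tested and the sums were 0.848 to 1.34 in KO, 0.522 to 2.45 in Het and 0.216 to 1.21 in WT cells, with the cartilage genes Matn1 and Lect1 well above background on 0 arrays. Over 12 arrays 0 of the 5 were called. Over the 9 arrays Matn3 (1.185, adjusted p = 0.0037), Comp (1.63, adjusted p = 0.0126) and Hapln1 (2.20, adjusted p = 0.000447) rose in KO against WT cells. None fell there, and 15.4% of all tested probes were called. Matn3 fell in Het against WT cells (−0.79, adjusted p = 0.0274). Hapln1, well above background on 4 of 4 KO, 1 of 4 Het and 1 of 4 WT arrays, was tested because of KO, its highest genotype. Markers of bone, skeletal muscle and Schwann cells summed to at most 2.64, 5.7 and 1.44 on any array. The only calls among them over 12 arrays were the bone gene Alpl and the Schwann gene S100b. Alpl was higher in KO than in WT cells (1.72, adjusted p = 0.0442) and S100b lower in KO than in Het cells (−2.50, adjusted p = 0.0499). Alpl was tested because of KO, its highest genotype (well above background on 4 of 4 KO, 1 of 4 Het and 2 of 4 WT arrays). The part of these shifts in the results below was not tested, and fewer cells of a type cannot be told apart here from less RNA per cell.

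Each level is the log2 processed signal of a probe after that array's 75th percentile was subtracted, so 0 equals that percentile. Levels are compared between arrays for the same probe and not between probes. A probe was tested if the scanner software called it well above background on all 4 KO, all 4 Het or all 4 WT arrays. This left 69 of the 101 probes, for 44 genes, of which 52 probes (35 genes) were well above background on all 12 arrays. The other 17 passed without being well above background on every array. Most of these were brightest in a genotype that let them pass, so counts over the tested members lean towards differences. Exceptions were Col22a1, which passed through KO, its dimmest genotype, and Lamc3, which passed through WT but had a slightly higher mean in Het cells. The 9 genes with no tested probe were Col13a1, Col15a1, Col17a1, Col23a1, Col24a1, Col28a1, Col4a3, Col9a1 and Lama1. In all, 11 probes were well above background on 0 arrays, both Lama1 probes among them, and 0 member probes were saturated on any array.

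**Figure D1:**
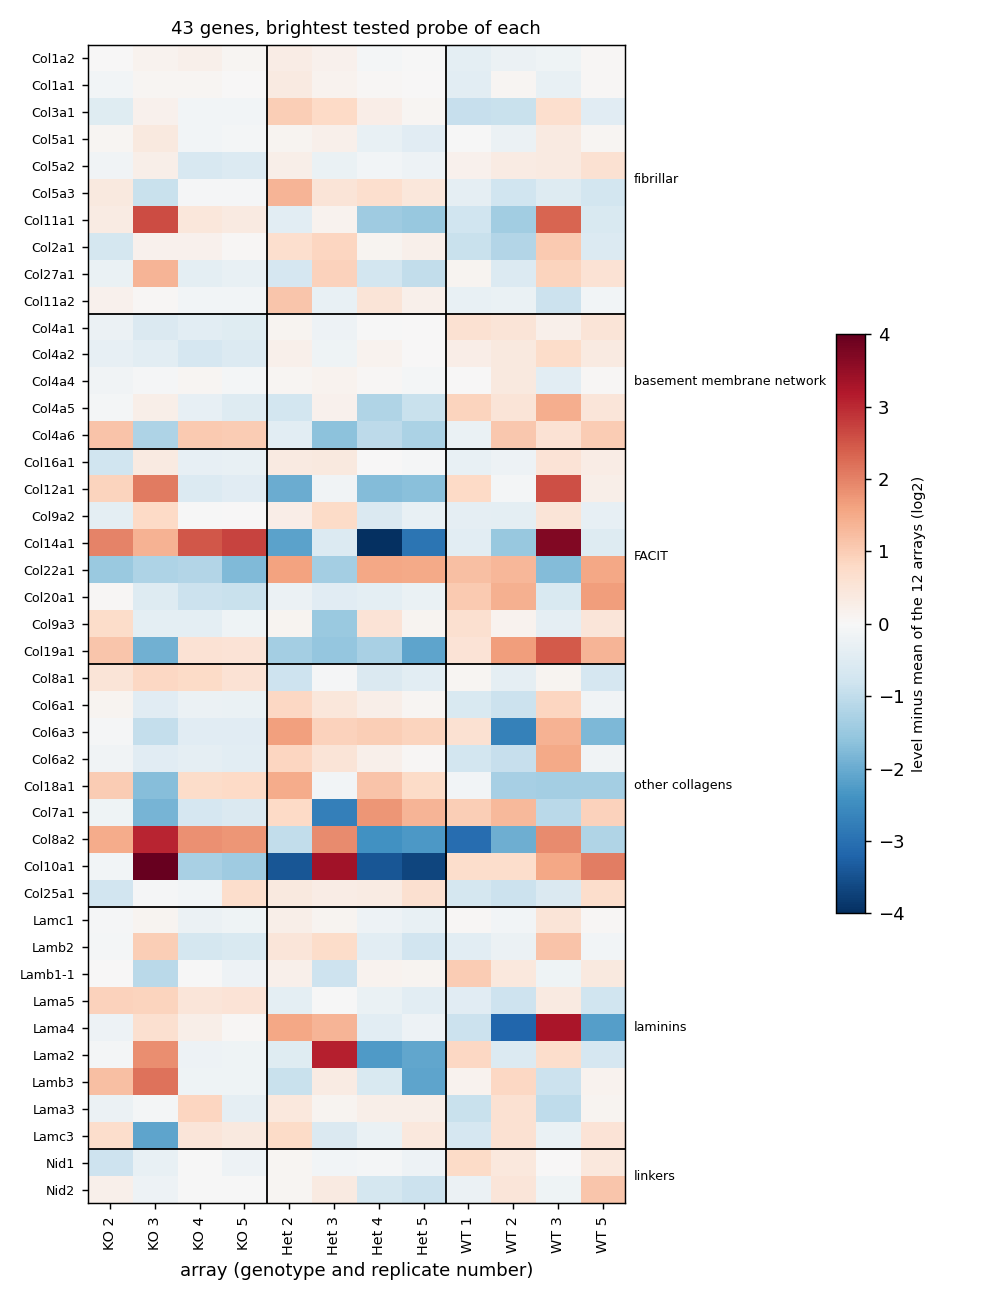
Level of 43 genes on the 12 arrays, each read by its brightest tested probe and shown as the difference from that probe's own mean (log2; colours end at −4 and 4). Columns run KO, Het and WT with replicate numbers, and rows are grouped by role. Col1a2 and Col1a1 are nearly even across all arrays, while Col10a1, Col14a1, Col8a2 and Lama4 vary most, with the columns numbered 3 often unlike the rest of their genotype.

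Over all 12 arrays, 5 member probes differed between KO and WT cells at a limma adjusted p under 0.05, 1 higher and 4 lower, where 1.5% of all 25601 tested probes were called. Between Het and WT cells 3 were called, 1 higher and 2 lower (background 1.09%), and between KO and Het cells 1, higher in KO (background 0.816%). At an unadjusted p under 0.05 there were 16, 21 and 20 of the 69 members (23.2%, 30.4% and 29%), against 16.3%, 15.9% and 11.3% of all tested probes. Without the arrays numbered 3 the calls were 24 for KO against WT (10 higher, 14 lower, background 15.4%), 21 for Het against WT (10 higher, 11 lower, background 10.3%) and 19 for KO against Het (14 higher, 5 lower, background 7.54%). As shares of the 69 tested members these were 34.8%, 30.4% and 27.5%. All 9 calls from the 12 arrays were also called over the 9 arrays, and all 64 calls over the 9 arrays had the same sign over the 12. The middle of the group hardly moved: the median log2 fold change over the tested members was 0.03 for KO against WT, −0.15 for Het against WT and −0.13 for KO against Het, where all tested probes had 0.04, 0.02 and 0.00. The comparisons share their arrays, so they are given side by side and not as independent evidence.

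The calls depended on single arrays. Without WT replicate 3 alone, 18 members were called for KO against WT (background 8.81%), 14 for Het against WT (background 7.41%) and 3 for KO against Het (background 1.77%). Without KO replicate 4, KO replicate 5 or WT replicate 5, 0 were left for KO against WT (background 0.266% to 0.422%). For Het against WT, 0 were left without KO replicate 2, 4 or 5, Het replicate 2, 4 or 5, or WT replicate 2 or 5 (background 0.141% to 0.387%). For KO against Het, 0 were left without the same KO or Het arrays or without WT replicate 2 (background 0.195% to 0.586%). An array of a genotype outside the comparison enters only through the shared estimate of scatter, so leaving it out left the fold changes as they were and moved the adjusted p alone. With slide as a block the calls over 12 arrays were 0, 1 and 0 for KO against WT, Het against WT and KO against Het (background 0.281%, 0.227% and 0.418%). In the fit of 9 arrays, they were 26, 15 and 13 with that block (background 13.5%, 7.7% and 6.02%), and 15, 11 and 11 with KO replicates 4 and 5 averaged into 1 sample (background 6.98%, 7.2% and 4.07%). Brightest probes that lost their call with this averaging included Col11a1, Col4a5, Col8a1 and Nid1 for KO against WT (adjusted p 0.053 to 0.0796). They also included Col4a1, Col4a6 and Lama4 for Het against WT (adjusted p 0.0576 to 0.0773). For KO against Het they included Col11a1 and Col4a2 (adjusted p = 0.0734 and 0.117).

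Of type IV collagen, the network former of basement membranes, the chains Col4a1 and Col4a2 were lower in KO cells. Of the 9 tested probes of type IV genes, 4 fell in KO against WT cells over 12 arrays (background 1.5%), and 5 fell and 0 rose over the 9 arrays (background 15.4%), with a median of −0.90 over 12 arrays. At the brighter Col4a1 probe (A_51_P124254) the levels were 3.18, 2.83, 3.00 and 2.93 in KO cells, 3.52, 3.24, 3.40 and 3.45 in Het cells, and 4.04, 3.94, 3.64 and 3.93 in WT cells. The 3 genotypes did not overlap, with KO lowest and WT highest. KO cells differed from WT by −0.90 (SE 0.14, 1.87-fold lower, limma adjusted p = 0.0132, exact two-sided permutation p = 0.0286, the smallest that 4 against 4 arrays can give). At the second probe (A_52_P518827), in another part of the transcript, KO cells had 2.31, 1.96, 1.93 and 2.00, Het cells 2.97, 2.24, 2.93 and 2.76, and WT cells 3.12, 3.19, 2.93 and 3.25. There KO cells fell by 1.07 (SE 0.18, 2.1-fold, adjusted p = 0.0186), and Het replicate 3 lay among the KO arrays while the other Het arrays lay above them.

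Col4a2 followed the same order of genotypes. Its brighter probe (A_51_P491350) stood at 2.91, 2.82, 2.56 and 2.68 in KO cells, 3.44, 3.05, 3.38 and 3.25 in Het cells, and 3.49, 3.63, 3.98 and 3.59 in WT cells, again without overlap between any pair of genotypes. KO cells fell by 0.93 against WT (SE 0.16, 1.9-fold, adjusted p = 0.0185). The other probe (A_52_P496142) had 1.32, 1.18, 0.83 and 1.15 in KO cells, 2.06, 1.25, 2.22 and 1.71 in Het cells, and 1.96, 2.39, 2.68 and 2.51 in WT cells, with a difference of −1.27 (SE 0.23, 2.4-fold lower, adjusted p = 0.0256). The KO and WT arrays did not overlap there, and Het overlapped with both.

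The fall of the pair was about as large without the arrays numbered 3, at −0.94 and −1.11 for the Col4a1 probes and −0.85 and −1.19 for the Col4a2 probes (adjusted p 0.0018 to 0.00706). Within slides 3 and 4 the brighter probes gave −0.61 and −0.97 for Col4a1 and −0.89 and −0.97 for Col4a2. Slide 3 holds WT replicate 3, without which it gave −0.76 for Col4a1 and −0.72 for Col4a2. With slide as a block over 12 arrays the differences were −0.79 (SE 0.17) and −0.91 (SE 0.18), with adjusted p of 0.111 and 0.0879. The calls at the brighter probes were lost without KO replicate 4, KO replicate 5 or WT replicate 5 (adjusted p 0.0501 to 0.0664 for Col4a1 and 0.0551 to 0.0865 for Col4a2) and held without any 1 of the other 9 arrays, and the differences lay between −0.99 and −0.83 over the 12 omissions at both probes. The dimmer probes also lost theirs without WT replicate 2 (Col4a1, adjusted p 0.0528 to 0.0843 over the omissions that ended it) and without WT replicate 2 or KO replicate 2 (Col4a2, 0.056 to 0.106).

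Het means stood between those of the other genotypes at this pair. Against WT, the brighter Col4a1 probe gave −0.49 over 12 arrays (SE 0.14, adjusted p = 0.134) and −0.51 over the 9 arrays (SE 0.13, adjusted p = 0.0373). The brighter Col4a2 probe had −0.39 over 12 arrays (adjusted p = 0.256) and −0.21 over the 9 (adjusted p = 0.399) and was called in neither. Between KO and Het cells, Col4a2 had −0.54 over 12 arrays (SE 0.16, adjusted p = 0.181) and −0.64 over the 9 (SE 0.14, adjusted p = 0.0255). The Col4a1 and Col4a2 arrays of KO and Het cells did not overlap at the brighter probes (exact p = 0.0286).

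**Figure D2:**
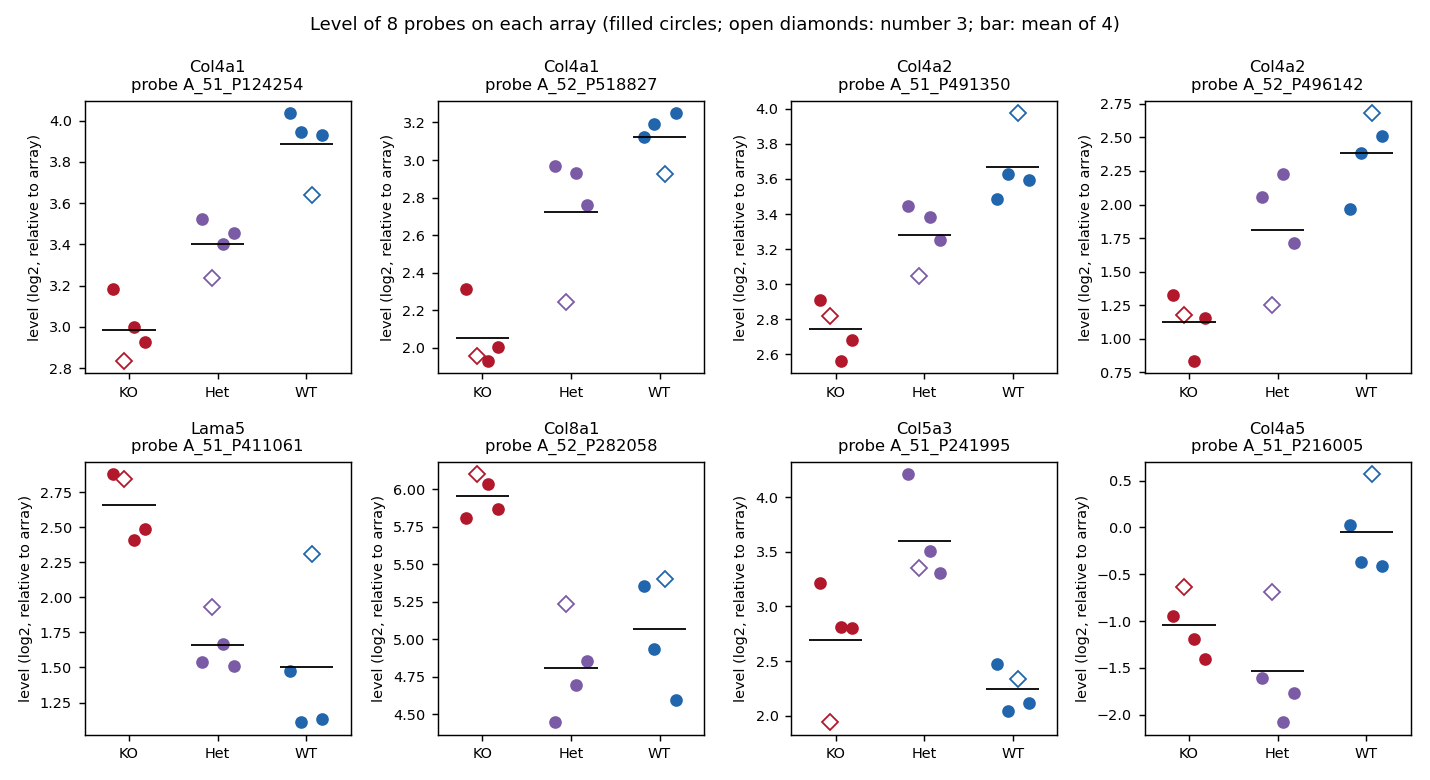
Level (log2, relative to the 75th percentile of the array) of 8 probes on each array, with KO, Het and WT from left to right. Filled circles are arrays numbered 1, 2, 4 or 5, open diamonds the arrays numbered 3, and bars the mean of 4. All 4 probes of Col4a1 and Col4a2 are lowest in KO and highest in WT on average, and KO is apart from WT at each of the 4. Lama5 and Col8a1 are highest in KO, Col5a3 is highest in Het and Col4a5 lowest in Het on average.

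Of the other type IV chains, Col4a5 was also below WT in KO cells and was lowest in Het cells on average. Col4a5 and Col4a6, chains of basement membranes around smooth muscle and in skin, are neighbours on the X chromosome. Col4a5 (A_51_P216005) was at −0.95, −0.63, −1.19 and −1.41 in KO cells, −1.60, −0.69, −2.08 and −1.77 in Het cells, and 0.03, −0.37, 0.57 and −0.41 in WT cells. Every WT array lay above every KO and Het array. Het cells fell by 1.49 against WT (SE 0.31, 2.81-fold, adjusted p = 0.0491, exact p = 0.0286) and by 1.57 over the 9 arrays (SE 0.20, adjusted p = 0.00197), with −1.70 and −1.36 within slides 3 and 4 (−1.23 in slide 3 without WT replicate 3). With slide as a block the difference was −1.60 (SE 0.39, adjusted p = 0.171), and the call over 12 arrays held only without KO, Het or WT replicate 3, at differences of −1.77 to −1.29 over the 12 omissions. KO cells had −0.999 against WT over 12 arrays (SE 0.31, adjusted p = 0.148, exact p = 0.0286) and −0.93 over the 9 (SE 0.20, adjusted p = 0.0146).

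Col4a6 (A_52_P516409) was low in Het cells and, outside replicate 3, not in KO cells. Its levels were −0.13, −2.50, −0.23 and −0.26 in KO cells, −1.70, −2.91, −2.31 and −2.54 in Het cells, and −1.56, −0.20, −0.71 and −0.26 in WT cells. KO replicate 3 lay among the Het arrays, and WT replicate 1 was the lowest WT array. With the arrays numbered 3 left out, Het cells fell by 1.51 against WT (SE 0.36, adjusted p = 0.0322), and KO cells were 1.98 above Het (SE 0.36, 3.94-fold, adjusted p = 0.011). All 12 arrays gave −1.68 (adjusted p = 0.147) and 1.59 (adjusted p = 0.245). A second probe gave −1.496 and 2.20 over the 9 and −2.05 and 1.75 over the 12, while the probe A_52_P447196 spanned −2.93 to −1.57 over all 12 arrays and was not called in any comparison. The probe of Col4a4 that was tested spanned −0.62 to 0.19 over the 12 arrays, the narrowest range of the type IV genes. The 3 probes of Col4a3 and the second Col4a4 probe were not tested, each being well above background on at most 3 arrays.

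Laminins, which anchor the basement membrane to cell receptors, changed in single chains. Of 15 tested laminin probes, 1 rose in KO against WT cells over 12 arrays (background 1.5%), and 2 rose and 3 fell over the 9 (background 15.4%). Lama5, the alpha chain of laminins found in most mature basement membranes, was at 2.88, 2.84, 2.41 and 2.49 in KO cells, 1.54, 1.93, 1.67 and 1.51 in Het cells, and 1.47, 1.11, 2.31 and 1.13 in WT cells. KO lay above both other genotypes on every array, and WT replicate 3 was the WT array nearest to them. KO cells rose by 1.15 against WT (SE 0.25, 2.22-fold, adjusted p = 0.0497, exact p = 0.0286), and by 1.36 over the 9 arrays (SE 0.17, adjusted p = 0.00145). Within slides 3 and 4 it stood 1.17 and 1.32 higher, and 1.77 in slide 3 without WT replicate 3. A fit with a slide term gave 1.19 (SE 0.29, adjusted p = 0.154). The call over 12 arrays held only without Het replicate 3 or WT replicate 3, while the difference lay between 1.02 and 1.42 over the 12 omissions. Against Het cells, KO cells had 0.99 over 12 arrays (adjusted p = 0.126) and 1.02 over the 9 (SE 0.17, adjusted p = 0.00726).

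Lama3 and Lamb3 are chains of a laminin of skin and other epithelia. Lamb3 had 1.58 for KO against Het (SE 0.61, adjusted p = 0.347) and was not called. The 2 Lama3 probes differed from each other: one was called higher in KO over the 9 arrays (1.87 against WT, SE 0.50, adjusted p = 0.0367, and 2.03 against Het, SE 0.50, adjusted p = 0.0426), and the other in none of the comparisons. Over 12 arrays the first had 0.97 (adjusted p = 0.548) and 1.25 (adjusted p = 0.561). That probe was well above background on 4 of 4 KO, 3 of 4 Het and 3 of 4 WT arrays. It was thus tested because of KO, the genotype in which it is highest.

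Lama4, the alpha chain of laminins of vessels and mesenchyme, was most uneven among WT arrays. Its brightest probe had 0.36, 1.22, 0.79 and 0.60 in KO cells, 2.12, 1.93, 0.15 and 0.36 in Het cells, and −0.28, −2.60, 3.85 and −1.64 in WT cells, so that WT replicate 3 was the highest of the 12 arrays and WT replicate 2 the lowest. Over the 9 arrays Het cells rose by 2.38, 2.49 and 2.43 against WT at 3 probes (adjusted p 0.0381 to 0.0475), while over 12 arrays the differences were 1.31, 1.27 and 1.34 (adjusted p 0.594 to 0.629). Lamc1, the gamma chain shared by most laminins, had the highest mean level of the laminin probes. It stood at 3.99 ± 0.15 in KO, 4.05 ± 0.26 in Het and 4.22 ± 0.26 in WT cells (SD, n = 4 each), and the KO minus WT difference of −0.22 (SE 0.18) was not called. Lamb1-1, the beta chain that pairs with it, fell by 0.69 in KO against WT cells over the 9 arrays (SE 0.18, adjusted p = 0.0345) and had −0.75 over the 12 (adjusted p = 0.281).

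Nidogens join the laminin and type IV collagen networks. Nid1 was at 3.16, 3.70, 3.98 and 3.78 in KO cells, 4.07, 3.89, 3.90 and 3.77 in Het cells, and 4.76, 4.40, 3.99 and 4.40 in WT cells. The KO arrays lay below the WT arrays, narrowly so between KO replicate 4 and WT replicate 3. The KO minus WT difference was −0.73 over 12 arrays (SE 0.20, adjusted p = 0.111) and −0.88 over the 9 (SE 0.22, adjusted p = 0.0309). Nid2 was at 3.09, 2.69, 2.87 and 2.86 in KO cells, 2.96, 3.23, 2.18 and 2.03 in Het cells, and 2.65, 3.36, 2.70 and 3.99 in WT cells. The genotypes overlapped, and Nid2 was called in 0 comparisons.

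**Figure D3:**
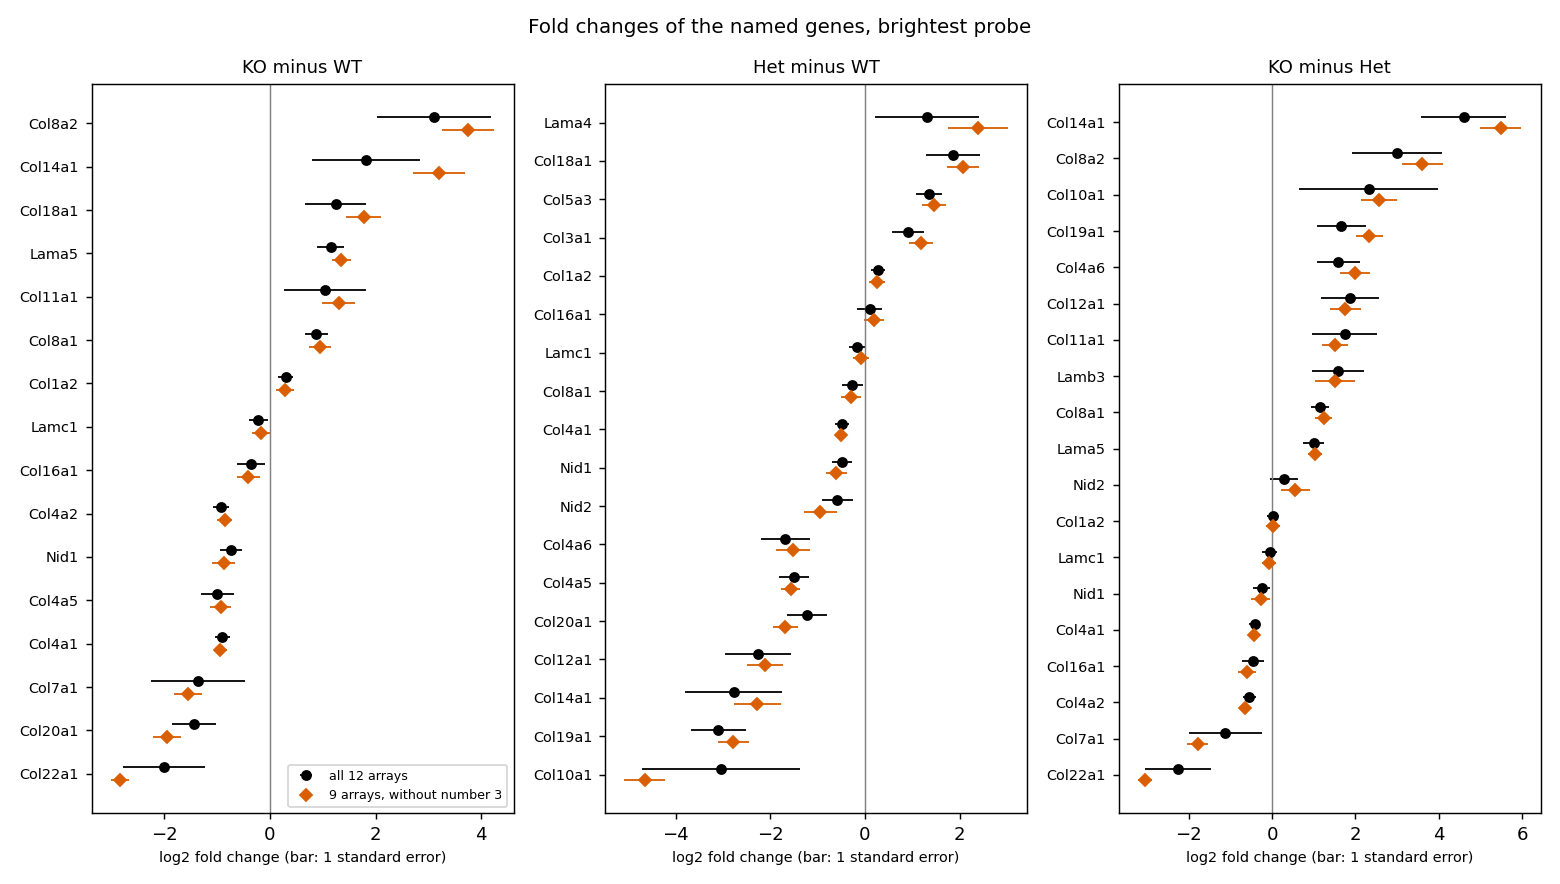
Log2 fold changes of named genes at their brightest probe, in KO minus WT, Het minus WT and KO minus Het, with bars of 1 standard error. Black circles use all 12 arrays and orange diamonds the 9 arrays without number 3. The direction is the same in both for every gene drawn, and the standard errors of Col10a1, Col14a1, Col22a1, Col7a1 and Lama4 are wider with the arrays numbered 3. The points of Col10a1 and Col19a1 against Het cells are fitted values and no bounds.

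The fibrillar collagens with the brightest probes varied little at those probes. Col1a2, a chain of type I collagen, was at 7.66, 7.80, 7.84 and 7.73 in KO cells, 7.94, 7.81, 7.56 and 7.63 in Het cells, and 7.24, 7.42, 7.47 and 7.69 in WT cells, and was called in 0 comparisons (KO minus WT 0.30, SE 0.14, adjusted p = 0.332). A second Col1a2 probe (A_52_P424253) was less even, with means of −2.17 in KO, −3.45 in Het and −3.12 in WT cells. It was not called in either fit. The brightest probe of Col1a1, the partner chain, spanned 6.61 to 6.79 in KO, 6.75 to 7.07 in Het and 6.30 to 6.79 in WT cells. A second Col1a1 probe (A_51_P377094) did not follow it, with 6.16, 6.03, 5.78 and 5.64 in KO cells, 5.13, 6.27, 4.74 and 5.24 in Het cells, and 4.72, 4.32, 7.17 and 4.70 in WT cells. WT replicate 3 was the highest of the 12 arrays there. With the arrays numbered 3 left out, that probe rose by 1.28 in KO against WT cells (SE 0.20, adjusted p = 0.00439) and by 0.82 against Het cells (SE 0.20, adjusted p = 0.0445), while the brightest probe was not called. Over 12 arrays it had 0.67 (adjusted p = 0.601) and 0.56 (adjusted p = 0.777).

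Over 12 arrays the only fibrillar collagen probe called was one of Col5a3, higher in Het than in WT cells. Col5a3 is a less common chain of type V collagen, which takes part in fibril assembly. At this probe (A_51_P241995) the levels were 3.22, 1.94, 2.81 and 2.80 in KO cells, 4.21, 3.35, 3.51 and 3.31 in Het cells, and 2.47, 2.04, 2.34 and 2.12 in WT cells. Het lay above both other genotypes on every array. The difference from WT was 1.35 (SE 0.28, 2.56-fold higher, adjusted p = 0.0449, exact p = 0.0286), and 1.82 with slide as a block (SE 0.25, adjusted p = 0.0457). It was 2.02 and 1.19 within slides 3 and 4 (2.17 in slide 3 without WT replicate 3) and 1.47 over the 9 arrays (SE 0.25, adjusted p = 0.00811). The call over 12 arrays held only without KO, Het or WT replicate 3, with differences of 1.15 to 1.45 over the 12 omissions. The dimmer Col5a3 probe (A_52_P503796) had 0.37 (SE 0.35, adjusted p = 0.646) and was not called in either fit.

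Col3a1, the type III collagen of soft tissues, had 5.06, 5.71, 5.44 and 5.41 in KO cells, 6.51, 6.32, 5.79 and 5.62 in Het cells, and 4.61, 4.66, 6.20 and 5.09 in WT cells. WT replicate 3 lay within the Het range. Het cells were 0.92 above WT over 12 arrays (SE 0.34, adjusted p = 0.219) and 1.18 over the 9 (SE 0.25, adjusted p = 0.0205). Col11a1, a chain of the thin fibrils of cartilage, was at 2.07, 4.34, 2.18 and 2.09 in KO cells, 1.31, 1.89, 0.30 and 0.21 in Het cells, and 0.94, 0.36, 4.06 and 1.14 in WT cells. KO and WT replicate 3 were far above every other array, and without them the KO arrays lay above the others. Without number 3, KO cells rose by 1.30 against WT (SE 0.31, adjusted p = 0.0231) and by 1.504 against Het (SE 0.31, adjusted p = 0.0188). Over 12 arrays these were 1.04 (adjusted p = 0.565) and 1.74 (adjusted p = 0.437), and within slide 3, which holds WT replicate 3, KO minus WT was −0.14. Col5a2, another type V chain, fell by 0.82 in KO against WT cells over the 9 arrays (SE 0.20, adjusted p = 0.027) and had −0.65 over the 12 (adjusted p = 0.161). Col2a1, the main collagen of cartilage, rose in Het against WT cells at its brighter probe over the 9 arrays, by 1.20 (adjusted p = 0.0266), and had 0.85 over the 12 (adjusted p = 0.347). A second Col2a1 probe, which overlaps that one and was well above background on all 12 arrays, did not follow it, with 0.13 over the 9 arrays (adjusted p = 0.712). Col11a2 rose at its brighter probe by 0.83 over the 9 arrays (adjusted p = 0.0492), against 0.76 over the 12 (adjusted p = 0.202), and its second probe had 0.43 over the 9 (adjusted p = 0.464).

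Among the FACIT collagens, Col14a1, which coats type I fibrils, had the widest gap between KO and Het cells. Its levels were −1.39, −1.98, −0.88 and −0.67 in KO cells, −5.52, −3.93, −7.55 and −6.30 in Het cells, and −3.80, −4.87, 0.34 and −3.87 in WT cells, where WT replicate 3 lay above all KO arrays. In the fit of 9 arrays, KO cells were 5.48 above Het (SE 0.50, adjusted p = 0.000318) and 3.20 above WT (SE 0.50, adjusted p = 0.00385), and Het cells fell by 2.28 against WT (SE 0.50, adjusted p = 0.0224). Over 12 arrays these were 4.59 (SE 1.02, adjusted p = 0.0725), 1.82 (adjusted p = 0.417) and −2.77 (adjusted p = 0.218). Of the 4 Het arrays, 3 had this probe well above background, and a second Col14a1 probe on 0 arrays.

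Col22a1, a collagen of the junction of muscle and tendon, showed a low level in KO cells. It stood at −5.90, −5.67, −5.61 and −6.20 in KO cells, −2.81, −5.78, −2.87 and −2.90 in Het cells, and −3.23, −3.09, −6.16 and −2.88 in WT cells. Het and WT replicate 3 lay within the KO range, and all other Het and WT arrays lay above it. Over the 9 arrays KO cells fell by 2.84 against WT (SE 0.18, 7.14-fold, adjusted p = 4.1e-05) and by 3.04 against Het (SE 0.18, 8.23-fold, adjusted p = 4.8e-05). Over 12 arrays they were −2.003 (SE 0.78, adjusted p = 0.231) and −2.25 (SE 0.78, adjusted p = 0.281).

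Col12a1, which also binds type I fibrils, had −0.27, 0.94, −1.68 and −1.60 in KO cells, −3.12, −1.29, −2.88 and −2.82 in Het cells, and −0.34, −1.24, 1.43 and −0.92 in WT cells. Het lay below WT on every array (exact p = 0.0286), by 2.26 over 12 arrays (SE 0.70, adjusted p = 0.151) and 2.10 over the 9 (SE 0.38, adjusted p = 0.0101). Col19a1 (A_51_P146726), a rare collagen of muscle and basement membrane zones, was well above background on 3 of 4 KO, 0 of 4 Het and 4 of 4 WT arrays. WT cells, at a mean level of −5.11, were at least 2.3-fold brighter than Het cells, whose measured mean was −8.21. The probe was called for the fitted difference (adjusted p = 0.0397), and the bound itself has no test. This probe was tested because WT cells, its brightest genotype, let it pass. Over the 9 arrays the bound was 2.03-fold, and the fitted difference had an adjusted p of 0.00157. The call over 12 arrays was lost without KO replicate 2, 4 or 5, Het replicate 2, 4 or 5, or WT replicate 2 or 5 (adjusted p 0.0518 to 0.12). A slide term over 12 arrays also ended it (adjusted p = 0.141). Over the 9 arrays the call held with that term (adjusted p = 0.000876). Col20a1 fell over the 9 arrays in KO (by 1.95, SE 0.26, adjusted p = 0.00209) and Het cells (by 1.68, SE 0.26, adjusted p = 0.00571) against WT. All 12 arrays gave −1.44 (adjusted p = 0.121) and −1.22 (adjusted p = 0.19). Its WT replicate 3 was at −5.46, in the range of the KO arrays, and the other WT arrays at −3.81, −3.41 and −3.18. Col16a1, with the highest mean level of the FACIT probes, spanned 3.62 to 4.76 in KO, 4.37 to 4.81 in Het and 4.12 to 4.96 in WT cells and was called in 0 comparisons.

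Type VIII collagen, a short-chain collagen of vessel walls and of the membrane beneath the cornea's inner cell layer, was high in KO cells in both of its chains, for Col8a2 outside the arrays numbered 3. Col8a1 (A_52_P282058) was at 5.81, 6.10, 6.03 and 5.87 in KO cells, 4.45, 5.24, 4.70 and 4.85 in Het cells, and 5.35, 4.93, 5.40 and 4.60 in WT cells. Every KO array lay above every other array. KO cells rose by 1.14 against Het (SE 0.22, 2.21-fold, adjusted p = 0.0366, exact p = 0.0286), with 1.13, 1.36 and 1.10 within slides 1, 3 and 4 and 1.22 with slide as a block (SE 0.23, adjusted p = 0.0813). The call over 12 arrays was lost without any 1 of 8 arrays, namely each KO array, Het replicates 2, 4 and 5 and WT replicate 2 (adjusted p 0.0543 to 0.138), at differences of 1.02 to 1.29 over the 12 omissions. Against WT the difference was 0.88 over 12 arrays (SE 0.22, adjusted p = 0.0718) and 0.94 over the 9 (SE 0.21, adjusted p = 0.0173). A second Col8a1 probe gave 0.98 against WT over 12 arrays (adjusted p = 0.0564) and 0.89 over the 9 (adjusted p = 0.0195). Against Het that probe was not called over 12 arrays (1.02, adjusted p = 0.0689) and had 1.05 over the 9 (adjusted p = 0.0141).

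Col8a2, the partner chain, was at 2.31, 3.88, 2.68 and 2.62 in KO cells, −0.15, 2.73, −1.59 and −1.47 in Het cells, and −2.20, −1.10, 2.73 and −0.35 in WT cells. Het and WT replicate 3 stood at the KO level, and the other Het and WT arrays at −0.15 or lower. Without number 3, KO cells rose by 3.75 against WT (SE 0.50, 13.5-fold, adjusted p = 0.00181) and by 3.60 against Het (SE 0.50, 12.2-fold, adjusted p = 0.00271). Over 12 arrays these were 3.104 (SE 1.08, adjusted p = 0.185) and 2.99 (SE 1.08, adjusted p = 0.305).

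Col18a1, a collagen of basement membranes from which endostatin is released, was high in both mutant genotypes outside the arrays numbered 3. It stood at 2.56, −0.16, 2.29 and 2.34 in KO cells, 3.05, 1.43, 2.69 and 2.32 in Het cells, and 1.44, 0.22, 0.19 and 0.20 in WT cells, so that KO replicate 3 was the lowest of all. In the fit of 9 arrays, KO cells rose by 1.78 (SE 0.33, adjusted p = 0.00907) and Het cells by 2.07 (SE 0.33, adjusted p = 0.00628) against WT, and a second probe by 1.89 and 2.08. Over 12 arrays the brighter probe gave 1.24 (adjusted p = 0.317) and 1.86 (adjusted p = 0.153), and the second 1.05 and 1.66. Col7a1, the collagen of the anchoring fibrils that hold skin to its basement membrane, was at 1.08, −0.62, 0.56 and 0.66 in KO cells, 2.03, −1.49, 2.99 and 2.62 in Het cells, and 2.24, 2.53, 0.16 and 2.18 in WT cells. With the arrays numbered 3 left out, KO cells fell by 1.55 against WT (SE 0.26, adjusted p = 0.0051) and by 1.78 against Het (SE 0.26, adjusted p = 0.00344). Over 12 arrays these were −1.36 (adjusted p = 0.494) and −1.12 (adjusted p = 0.711).

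Col10a1, the collagen of hypertrophic cartilage, had the most extreme single values. It was at −4.62, 0.46, −5.81 and −5.92 in KO cells, −7.94, −1.14, −7.92 and −8.18 in Het cells, and −3.82, −3.79, −2.95 and −2.46 in WT cells. KO and Het replicate 3 were far above the other arrays of their genotypes. Of the 4 Het arrays only replicate 3 had it well above background. Over the 9 arrays WT cells were at least 8.54-fold and KO cells at least 2-fold brighter than Het cells. The fitted differences, and not these bounds, had adjusted p = 0.000445 and 0.00734. KO cells fell by 2.09 against WT over the 9 arrays (SE 0.43, adjusted p = 0.0134). Over 12 arrays Het minus WT was −3.04 (SE 1.66, adjusted p = 0.398), KO minus WT −0.72 (adjusted p = 0.887) and KO minus Het 2.32 (adjusted p = 0.676). Of type VI collagen, a microfibril former around cells, Col6a2 rose by 0.96 in Het against WT cells over the 9 arrays (SE 0.26, adjusted p = 0.0493) and had 0.47 over the 12 (adjusted p = 0.635), whereas Col6a1 and Col6a3 were called in 0 comparisons. Col6a3 (A_52_P479262) was at 2.80 to 3.68 in KO cells and 4.62 to 5.37 in Het cells, against 4.34, 1.04, 5.14 and 1.93 on the WT arrays.

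Many of these genes stood apart on the arrays numbered 3, in a common direction. In 19 of the 69 tested member probes (27.5%) the array numbered 3 lay beyond the other 3 arrays of its genotype, in the same direction, in all 3 genotypes, 15 higher and 4 lower, where 15.1% of all tested probes did so. With 1 such array per genotype this is a description without a test. The 4 lower probes were those of Col18a1, Col4a1, Col7a1 and Lamb1-1 (for Col18a1 and Col4a1, 1 of their 2 probes). The 15 higher probes belonged to 12 genes, among them Col11a1, Col12a1, Col8a2, Col2a1, Lama2 and Lamb2. Read by their brightest tested probe against the mean of the other 3 arrays, the genes farthest above in every genotype were Col12a1 (2.12 in KO, 1.65 in Het and 2.26 in WT cells), Col8a2 (1.35, 3.80 and 3.95) and Col11a1 (2.23, 1.29 and 3.25). The farthest below were Col7a1 (−1.39 in KO, −4.04 in Het and −2.15 in WT cells), Lamb1-1 (−1.01, −0.97 and −0.78) and Col9a3 (−0.43, −1.73 and −0.79). KO replicate 3 of Col9a3 was below that mean but not below every other KO array. Lama2, the alpha chain of muscle laminin, was 2.02, 4.70 and 0.85 higher on these arrays.

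**Figure D4:**
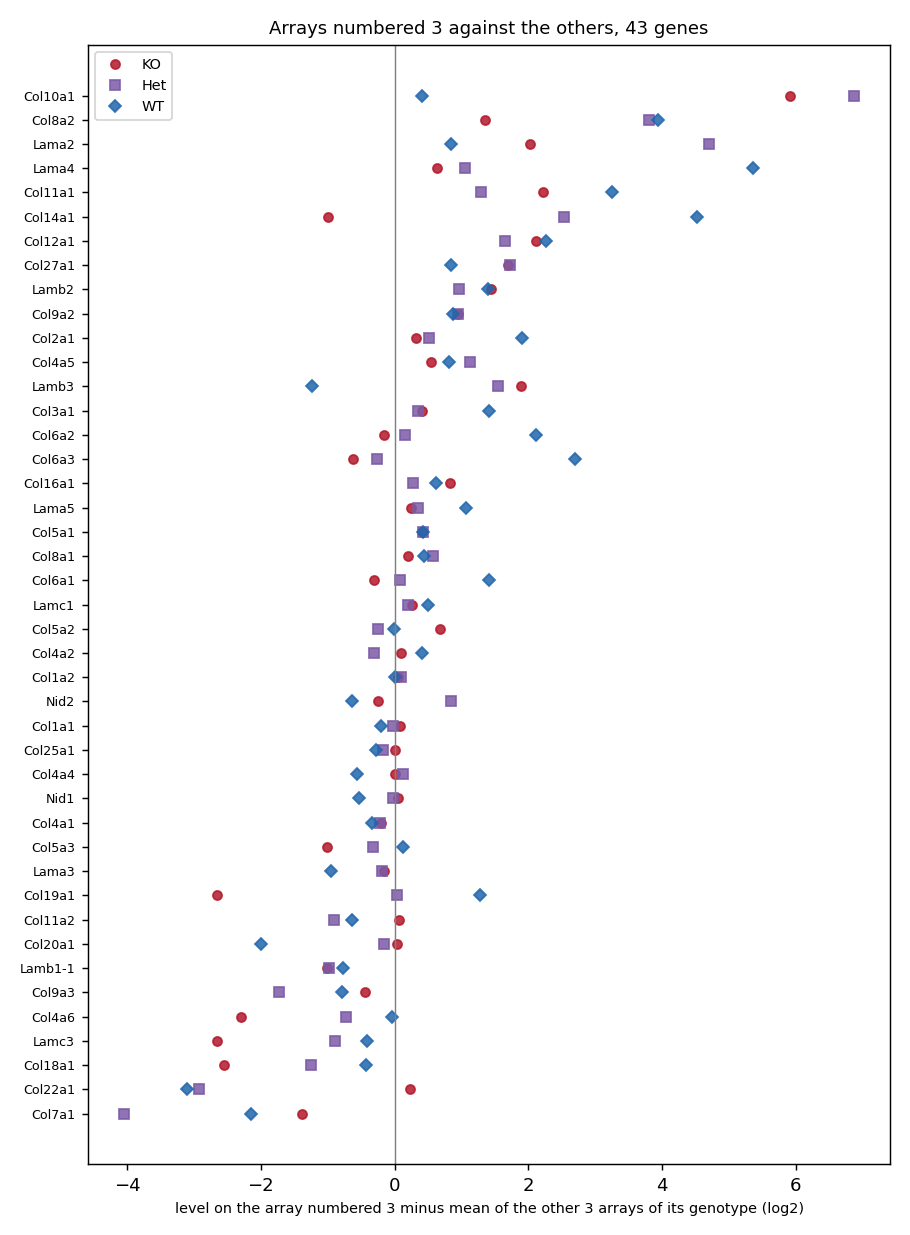
Level on the array numbered 3 minus the mean of the other 3 arrays of its genotype (log2), for 43 genes at their brightest tested probe. Circles are KO, squares Het and diamonds WT, ordered by the mean of the 3. Col12a1, Col8a2 and Col11a1 are above 1 in all genotypes and Col7a1 below −1, while others, Col14a1, Col19a1 and Lamb3 among them, differ in direction between genotypes.

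Genes that act with these proteins were read by 1 probe each, the brightest tested one. Of 28 tested genes that process collagen (hydroxylases, chaperones, proteases and cross-linking enzymes), 0 were called in any comparison over 12 arrays. In the fit of 9 arrays, 2 rose and 2 fell in KO against WT cells, 1 rose and 3 fell in Het against WT, and 3 rose in KO against Het, where 15.4%, 10.3% and 7.54% of all tested probes were called. Adamts2, which trims the amino end of fibrillar procollagens, rose by 2.60 in KO against WT cells (SE 0.25, adjusted p = 0.000385) and had 1.67 over the 12 arrays (adjusted p = 0.199). The cross-linking enzyme Loxl2 rose by 0.79 in KO and 1.01 in Het against WT (adjusted p = 0.00467 and 0.00204), and the protease Tll1 fell by 3.55 and 3.88 (adjusted p = 0.00535 and 0.00498). Over 12 arrays Loxl2 had 0.13 in KO and 0.60 in Het against WT (adjusted p = 0.95 and 0.661), with KO replicate 3 its lowest array, and Tll1 had −2.22 and −2.69 (adjusted p = 0.318 and 0.237). Tll1 passed through WT cells, its brightest genotype. The collagen chaperone Serpinh1 differed by 0.12 between KO and WT over 12 arrays (adjusted p = 0.786). The list's median was −0.06 for KO against WT over 12 arrays, beside 0.04 for all tested probes.

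Of 16 tested receptors for collagen and laminin, Itgb1, the beta chain shared by these integrins, fell by 0.82 in KO against WT cells over 12 arrays (SE 0.15, adjusted p = 0.0261). Its levels were 3.09, 2.89, 2.88 and 2.81 in KO cells, 3.41, 3.09, 3.14 and 3.02 in Het cells, and 3.76, 3.60, 3.58 and 4.04 in WT cells, so KO did not overlap with WT. Between KO and Het cells over 12 arrays, Itga6, a laminin receptor chain, fell by 1.54 (SE 0.26, adjusted p = 0.0233) and Itga11, a collagen receptor chain, rose by 2.54 (SE 0.48, adjusted p = 0.0362). Without number 3 these 3 differences were −0.87, −1.85 and 2.59 (adjusted p 0.000671 to 0.0109). In that fit, 1 receptor rose and 2 fell in KO against WT, 2 rose and 2 fell in Het against WT, and 3 rose and 2 fell in KO against Het (background 15.4%, 10.3% and 7.54%).

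Of 15 tested partners in basement membranes, Ntn4, a netrin that binds laminin, fell over 12 arrays by 2.29 in KO (SE 0.47, adjusted p = 0.0392) and by 2.37 in Het cells (SE 0.47, adjusted p = 0.0419) against WT. It was well above background on 3 of 4 KO, 1 of 4 Het and 4 of 4 WT arrays, so it was tested because of WT, the genotype in which it is highest. Over the 9 arrays it had −3.08 in KO and −2.60 in Het cells. Without number 3, 5 rose and 4 fell in KO against WT, 2 rose and 3 fell in Het against WT, and 4 rose and 2 fell in KO against Het (background 15.4%, 10.3% and 7.54%). The hemicentin Hmcn1 rose by 4.17 in KO cells against WT (SE 0.57, adjusted p = 0.00205), the embryonic skin basement membrane protein Fras1 by 3.52 (SE 0.30, adjusted p = 0.000189), and Smoc2 fell by 5.28 (SE 0.58, adjusted p = 0.000713). Over 12 arrays these were 2.40 (adjusted p = 0.524), 2.70 (adjusted p = 0.0622) and −4.17 (adjusted p = 0.151). Fras1 was likewise tested because of KO, its highest genotype, being well above background on 4 of 4 KO, 3 of 4 Het and 3 of 4 WT arrays. Hmcn1 was well above background on 4 of 4 KO, 4 of 4 Het and 3 of 4 WT arrays. Its levels were −5.07, −7.70, 1.60 and −6.50 in WT cells, with WT replicate 3 above every KO array (−2.36 to −1.34). The arrays behind Smoc2 were −6.21, 1.28, −4.87 and −4.86 in KO cells, 0.28, 0.16, 0.29 and 0.02 in Het cells, and 1.17, −1.28, 2.12 and −0.01 in WT cells, with KO replicate 3 among the Het and WT values.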

How the data were processed

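RNA of 12 samples was labelled with Cy3 and hybridised to 1-colour Agilent arrays, per the labels. The deposited files hold probe intensities, already background-subtracted by Agilent Feature Extraction 9.5, per the submitters' processing notes and the file headers. Spots of 1 probe were averaged, and each array's 75th percentile, taken across its non-control probes, was subtracted from the log2 processed signals. The number of arrays limits the precision. limma 3.58.1 (R 4.3.3) was fitted to all 25601 probes well above background on all arrays of at least 1 genotype, with Benjamini-Hochberg adjustment and calls at 0.05. Exact permutation tests were two-sided. Where a genotype had no array above background, a fold is a bound: the mean of the brighter genotype against the lowest signal called above background on the dimmer one's arrays. Genes are read by the tested probe of highest mean level unless a probe is named. The members, gene lists and named genes were chosen with earlier results of these data known. Genes named were those called with or without the arrays numbered 3 (at most 12 per comparison, by fold change), the brightest and most changed of each role, and the 3 farthest out on the arrays numbered 3 in each direction. Genes called outside that limit, and the partner genes given with values, were named after their values were seen. Averaging KO replicates 4 and 5, and the joint settings with it, were added after the data were seen. The fit was tested on simulated data. Coordinates of probes are those of the files (mm7), and promoter windows are RefSeq's. The values of 1 member gene, which stays in the counts, are not reported here.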

Additional observations from a re-analysis of the deposited data

Results flagged for a closer look

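Dixon's test, at a 1 in 20 threshold, was run on 84 groups of 4 arrays, and 10 of them held an array far from the others of its genotype. Of these arrays, 9 were numbered 3. Some of the genes were named for standing out on the arrays numbered 3, or for calls made without them. Neither count can therefore be set against chance. Among the Het arrays, replicate 3 was high at −1.14 for Col10a1 (others −8.18 to −7.92) and at −1.29 for Col12a1 (others −3.12 to −2.82), and low at −5.78 for Col22a1 (others −2.90 to −2.81) and at 1.35 for Lamb1-1 (others 2.29 to 2.37). Among the KO arrays, replicate 3 was high at 4.34 for Col11a1 (others 2.07 to 2.18), and low at −0.16 for Col18a1 (others 2.29 to 2.56) and at −2.50 for Col4a6 (others −0.26 to −0.13). Among the WT arrays, replicate 3 was low at −6.16 for Col22a1 (others −3.23 to −2.88) and at 0.16 for Col7a1 (others 2.18 to 2.53), and replicate 1 was high at 1.44 for Col18a1 (others 0.19 to 0.22).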

How the results depend on the processing

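The number of member probes called depended on the setting more than the fold changes did. For KO against WT, 5 calls became 0 without scaling, 1 without the filter, 3 with 1 probe per gene, 0 with slide as a block, 24 without the arrays numbered 3, 0 with KO replicates 4 and 5 averaged, 15 with both of these and 26 without number 3 and with slide as a block; leaving out 1 array gave 0 to 18. For Het against WT, 3 became 1 without scaling, 1 with quantile normalization, 0 with normexp, 0 without the filter, 1 with slide as a block, 21 without number 3, 0 with averaging, 11 with both and 15 without number 3 and with slide; leaving out 1 array gave 0 to 14. For KO against Het, 1 became 0 without scaling, with quantile normalization, without the filter, with slide or with averaging, 19 without number 3, 11 with both and 13 without number 3 and with slide; leaving out 1 array gave 0 to 5. With the replicate block the calls were 0, 1 and 3: those of Col4a1, Col4a2, Lama5, Col5a3 and Col19a1 were lost (adjusted p 0.0596 to 0.116), those of Col4a5 and Col8a1 held, and 1 probe each of Col11a1 and Col8a1 was added for KO against Het. Same-numbered arrays did not deviate together in every pair (correlations −0.093 to 0.399, the 3 pairs of number 3 all at 0.204 or above), so the numbers were not taken as pairs. Without scaling, the median of all probes was 0.06, −0.21 and 0.25 for these comparisons. Directions reversed for small differences. Col16a1 for Het against WT was −0.13 without scaling, −0.0362 with quantile normalization, −0.23 with slide as a block, and −0.0223 to 0.258 leaving out 1 array. Col1a2 for KO against Het was −0.0098 with normexp, −0.0519 without number 3 and with slide, and −0.0393 to 0.0903 leaving out 1 array. Lamc1 for KO against Het was 0.20 without scaling, 0.0086 with quantile normalization, and −0.15 to 0.0363 leaving out 1 array. Nid1 for KO against Het was 0.0049 without scaling. The cause was not tested.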
